A study of Mus musculus with 12 samples.

Results

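The comparison described here is between 4T1 cells that received 5 Gy of X-ray radiation (IR) and cells that received none (Ctr), both in medium that held 0.4 mM serine and 0.4 mM glycine, with RNA taken at 24 h. It takes in 3 IR and 3 Ctr libraries, 6 of the 12 in the series, which were chosen by the group and replicate given in the library labels, and it covers all genes. Of 20587 genes in the table, the 14592 that reached 10 normalized counts in 3 or more libraries were tested. A gene near 0 in Ctr cells passed this minimum only through libraries of other groups, so it could hardly be called lower. 4T1 is a mouse mammary carcinoma line that the study describes as p53 null, a background that IR and Ctr cells share, and RNA came from 1 experiment with 3 libraries per group. In the other 6 libraries, IR -SG and -SG, cells were cultured without either amino acid, with and without the same dose, and they are used below only where the response is set beside that in the second medium. Values are normalized counts, that is, reads per gene divided by 1 size factor per library, and log2 fold changes are those of IR over Ctr on the scale of log2(normalized count + 1). In RNA from a whole culture, fewer cells of a type and less RNA per cell cannot be told apart.

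Ionising radiation breaks DNA, and cells answer on several levels. The kinases ATM, ATR and DNA-PK signal the breaks, and in cells with p53 that protein switches on cell cycle inhibitors, DNA repair genes and death genes. DNA that leaves the nucleus, for example in micronuclei, can be sensed in the cytosol by cGAS, which signals through STING to the transcription factors IRF3 and NF-kB, and RNA can be sensed by RIG-I and MDA5. The interferons and cytokines that follow act on neighbouring cells and on the cell that made them.

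The libraries held 15553887 to 17906947 reads in genes in IR cells and 16138712 to 19507587 in Ctr cells. The identity of the line was checked against its markers. All 9 epithelial markers looked for, such as Epcam, Krt8 and Krt18, were present in every library, with summed levels of 64874 to 66280 in IR cells and 62337 to 62724 in Ctr cells. Of 9 leukocyte markers, 5 were in the table, and they summed to 339 to 364 in IR cells and 216 to 277 in Ctr cells, mostly from Cd14 and Cd68. Ptprc (CD45), the defining marker of leukocytes, was near 0, at 6.3, 2.81 and 4.34 in IR libraries and 2.67, 1.06 and 2.64 in Ctr libraries. Of 9 fibroblast and endothelial markers, 6 were in the table, with sums of 462 to 516 in IR cells and 199 to 233 in Ctr cells, mostly from Pdgfra.

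Ctr replicates 1 and 3 stood apart from the other 4 libraries in a small set of genes. There were 18 genes with at least 8 normalized counts in both of them and a level at least 5-fold above that in Ctr replicate 2 and in every IR library, and they were mostly genes of skin, hair follicle, connective tissue and macrophages, such as Krt5, Krt25, Krt71, Col3a1 and Lyz2. Summed over these genes, the level was 32.6, 23.4 and 35.8 in IR replicates 1 to 3, and 635, 59.5 and 698 in Ctr replicates 1 to 3. Only 1 of the 18, Tchh (trichohyalin, a hair follicle protein), passed the minimum and was tested. With Ctr replicate 2 as the only control, a check added after the values were seen, 3542 of the 3543 genes higher in IR cells and 3217 of the 3218 lower kept their direction, and 2458 and 1701 of them were still called. These genes had been selected with the same IR libraries and with Ctr replicate 2 among the controls, and with 1 library in an arm its spread is assumed to be that of the other groups. Replicate 6 of the -SG libraries also stood apart. Its reads differed from those of -SG replicates 4 and 5 by a chi-square per gene of 6.48 and 10.1, against at most 3 for other pairs within a group. It enters the spread that all tests share.

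The dose changed the RNA level of a large share of genes, most of them by little. By limma with Benjamini-Hochberg adjustment over all genes tested, 3543 genes (24.3%) were higher in IR cells and 3218 (22.1%) were lower at an adjusted p under 0.05, and 75.2% of them changed by less than 1.5-fold. Large changes were nearly all increases: 831 genes (5.69%) were higher by at least 2-fold and 19 (0.13%) were lower by as much. At 4-fold or more, 161 genes were higher and 2 lower, and the 2 were Tchh, described above, and Gm6254, a pseudogene with 3.15, 3.75 and 4.34 normalized counts in IR libraries against 5.34, 40.4 and 172 in Ctr libraries. All 3 IR libraries lay above all 3 Ctr libraries in 4219 genes (28.9%) and below them in 4274 (29.3%).

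The share of genes that fell went with level, and the share that rose did not. Among the 2452 tested genes with a mean under 30 normalized counts, 534 (21.8%) rose and 67 (2.73%) fell. Among the 178 with a mean of 10000 or more, 47 (26.4%) rose and 85 (47.8%) fell. Of the 831 genes that rose by at least 2-fold, 415 had a mean under 30 and 213 one of 30 to 100. At low counts the fold change on this scale is smaller than the ratio of the means. Of 259 long intergenic non-coding RNAs tested, 78 rose and 18 fell, and of 2029 pseudogenes 62 rose and 307 fell, where reads may be shared with the parent gene.

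**Figure D1:**
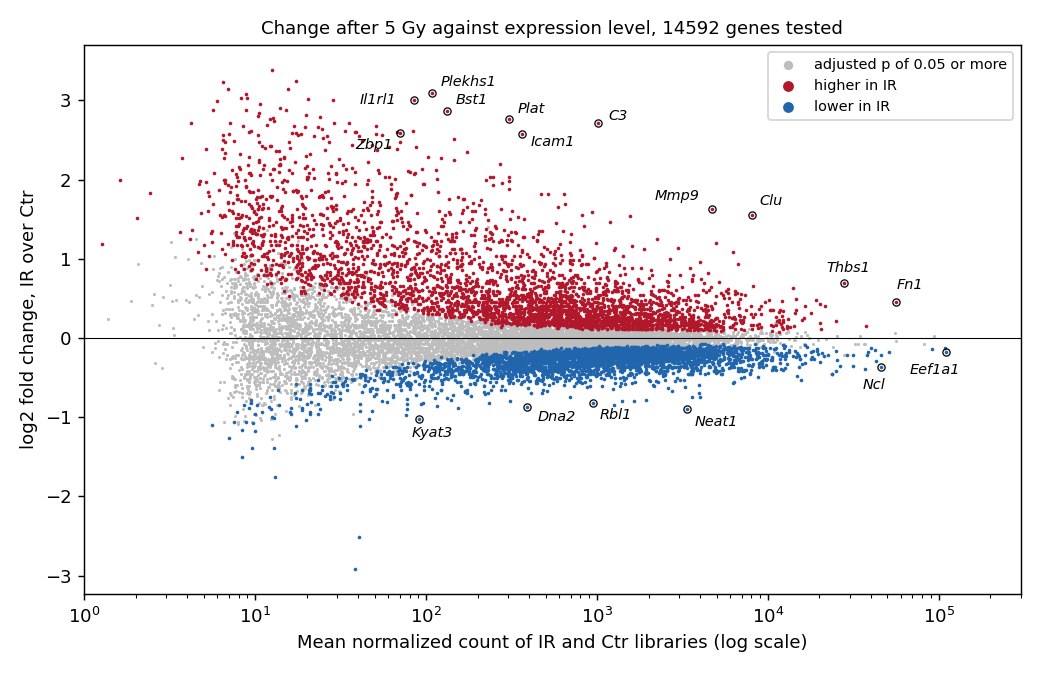
log2 fold change of each of the 14592 tested genes, IR over Ctr, against its mean normalized count in the 6 libraries on a log scale, with genes higher in IR cells at an adjusted p under 0.05 in red and lower genes in blue. Plekhs1 rose by a log2 fold change of 3.09, while abundant genes such as Fn1 (0.46) and Ncl (-0.37) changed by less.

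With genes limited to those whose groups did not overlap and whose IR mean reached 100 normalized counts, the 15 largest increases ranged from a log2 fold change of 3.09 (Plekhs1) to 2.35 (Scube3). Il1rl1 is the receptor of interleukin-33. It had 145, 156 and 152 normalized counts in IR libraries and 12.5, 18.1 and 25.5 in Ctr libraries, a log2 fold change of 3.0 ± 0.25 (SE). C3, the central component of complement, had 1903, 1681 and 1669 in IR libraries and 268, 267 and 267 in Ctr libraries, a log2 fold change of 2.71 ± 0.06 (adjusted p = 5.65e-15 by limma). Each IR library thus held more than 6 times the C3 level of any Ctr library. Icam1, an adhesion molecule to which leukocyte integrins bind, had 566, 659 and 634 against 93.4, 103 and 113 (log2 fold change 2.58 ± 0.10). Plat, the tissue plasminogen activator, had 528, 562 and 503 in IR libraries against 74.8, 84.0 and 72.1 in Ctr libraries (2.77 ± 0.10). None of these 4 genes overlapped between groups, which was a condition of their selection.

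The others of the 15 were Plekhs1 (log2 fold change 3.09), Bst1 (2.87), an ectoenzyme of NAD metabolism, Siglecg (2.61), a sialic acid receptor, Scara5 (2.60), a ferritin receptor, Zbp1 (2.59), a sensor of Z-form nucleic acid, Slc15a3 (2.52), a peptide transporter of the lysosome, Gbp4 (2.48), a guanylate-binding protein that interferon induces, Selp (2.41), P-selectin, Hsd11b1 (2.41), which makes active glucocorticoid, Angptl4 (2.39), an inhibitor of lipoprotein lipase, and Scube3 (2.35), a secreted protein. Plekhs1 had 188, 200 and 191 normalized counts in IR libraries and 25.8, 17 and 23.7 in Ctr libraries. Gbp4 belongs to a family of near-identical copies, so that its reads may be partly shared. By the difference in mean normalized counts, the largest increases were those of Fn1 (fibronectin, 65325 in IR cells and 47359 in Ctr cells, log2 0.46), Thbs1 (thrombospondin, 34476 and 21208, 0.70), Clu (clusterin, 12034 and 4072, 1.56), mt-Co1 (a subunit of complex IV, 22337 and 16052, 0.48) and Fscn1 (fascin, which bundles actin, 17099 and 11021, 0.63).

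The largest decreases were smaller and came from other kinds of genes. Dna2, a nuclease and helicase of DNA replication and repair, had 265, 283 and 278 normalized counts in IR libraries and 498, 547 and 472 in Ctr libraries (log2 fold change -0.87 ± 0.09). Rbl1 (p107), a relative of the retinoblastoma protein, had 697, 655 and 694 in IR libraries and 1209, 1253 and 1151 in Ctr libraries (-0.82 ± 0.06). Hirip3, a partner of the histone chaperone HIRA, had 1208, 1224 and 1186 against 2050, 2125 and 2082 (-0.79 ± 0.05). In each of the 3 genes every IR library lay below every Ctr library, which was a condition of their selection. The rest of the 15 were Kyat3 (-1.02), a kynurenine aminotransferase, Apoe (-0.97), Neat1 (-0.90), Fzd9 (-0.90), a Wnt receptor, Mrpl23 (-0.88), of the mitochondrial ribosome, Syt7 (-0.86), a calcium sensor of membrane fusion, Mogs (-0.84), a glucosidase of the endoplasmic reticulum, Smim26 (-0.83), Eef2kmt (-0.82), Mir17hg (-0.82), Pgghg (-0.80) and Stag1 (-0.80), a cohesin subunit. Kyat3, at 59.5 ± 11.7 normalized counts in IR cells and 121 ± 6.39 in Ctr cells (SD, n = 3 each), had the largest fall of the 15.

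Apoe, which encodes an apolipoprotein, followed the pattern of the 2 Ctr libraries that stood apart. It had 50.4, 52.5 and 46.6 normalized counts in IR libraries and 122, 61.6 and 126 in Ctr libraries, beside the sums of 635, 59.5 and 698 given above for the 18 genes in the same Ctr libraries. Against Ctr replicate 2 alone its log2 fold change was -0.30, in place of -0.97. In absolute terms, the largest falls were those of Eef1a1 (an elongation factor, 102755 in IR cells and 116381 in Ctr cells, log2 -0.18), Ncl (nucleolin, 39875 and 51692, -0.37), Itga3 (integrin alpha 3, 31871 and 41682, -0.39), Hsp90ab1 (a chaperone, 104419 and 113481, -0.12) and Eef2 (an elongation factor, 86426 and 95337, -0.14). The fall of Hsp90ab1 did not hold under quantile normalization, where its log2 fold change was 0.08. Reads of Eef1a1 and Hsp90ab1 may be shared with their pseudogenes.

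**Figure D2:**
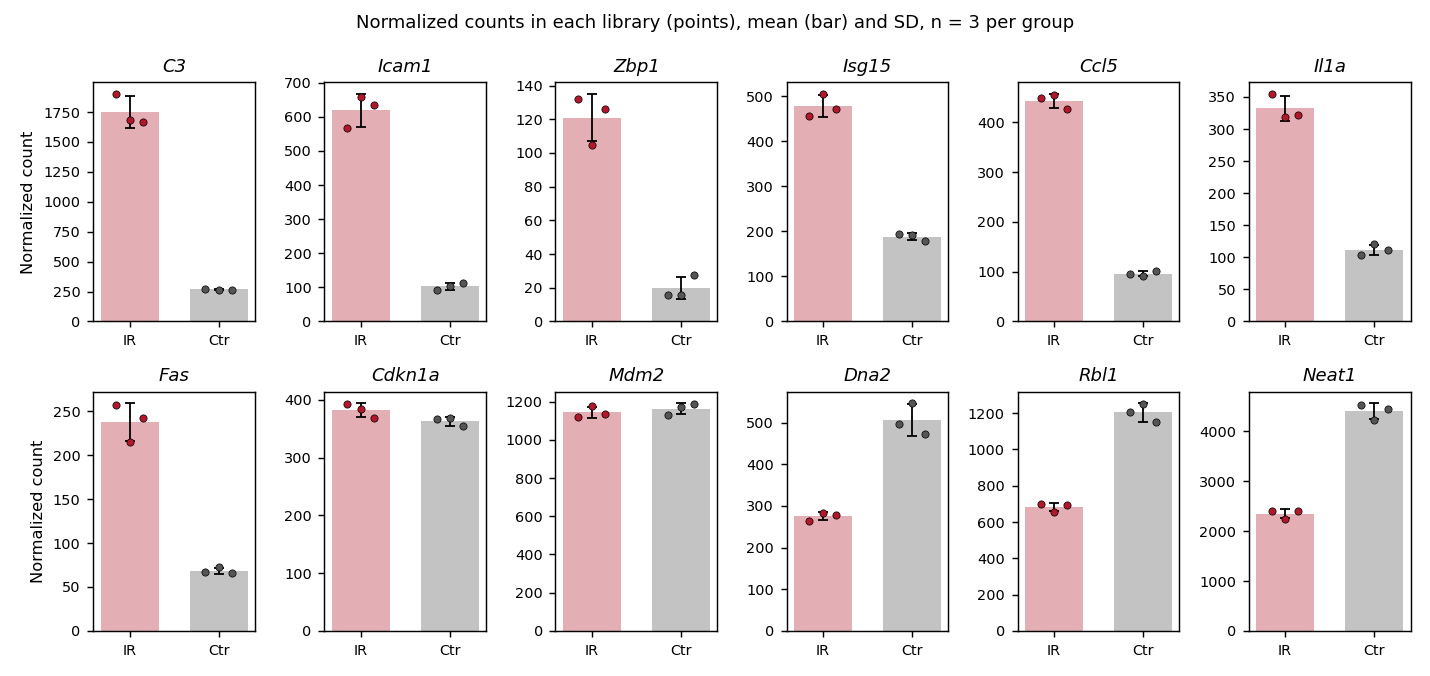
Normalized counts of 12 genes in each of the 3 IR (left, red) and 3 Ctr (right, grey) libraries, with the mean as a bar and the SD as a line, on axes that start at 0. C3, Icam1, Zbp1, Isg15, Ccl5, Il1a and Fas are higher in every IR library, Dna2, Rbl1 and Neat1 lower in every IR library, and Cdkn1a and Mdm2 differ by little (382 and 363, 1143 and 1164 on average).

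Genes that p53 switches on after damage rose in part, while its best known targets did not pass the test. Of 31 p53 target genes tested, 13 rose and 3 fell (all genes, 24.3% and 22.1%), with a median log2 fold change of 0.16, against -0.015 over all genes. Cdkn1a (p21), the inhibitor through which p53 halts the cycle, had 393, 384 and 369 normalized counts in IR libraries and 367, 368 and 354 in Ctr libraries (log2 0.07, adjusted p = 0.369 by limma). Mdm2, the ligase that degrades p53, had 1118, 1178 and 1135 in IR libraries and 1131, 1174 and 1186 in Ctr libraries, which overlap (-0.03, adjusted p = 0.711 by limma). Trp53 itself averaged 962 and 899 normalized counts in IR and Ctr cells (0.10, not called), so that its RNA was present in both groups. Bax and Bbc3, which promote apoptosis, were not called either, with log2 values of -0.12 and 0.14. Pmaip1 and Gdf15 were not analysed here.

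Other members of the group rose. Fas, the death receptor, had 257, 215 and 242 normalized counts in IR libraries and 66.7, 72.3 and 66.0 in Ctr libraries (log2 fold change 1.78 ± 0.09), with no overlap. Ephx1, an epoxide hydrolase, averaged 42.3 and 11 in IR and Ctr cells (1.86), Trp53inp1, a regulator of stress-induced death and autophagy, 66.2 and 29.0 (1.14), and Cd82, a tetraspanin, 1005 and 602 (0.74). Ei24 (-0.27) and Ddit4 (-0.24), an inhibitor of mTORC1, fell. Mdm4, which holds p53 inactive, fell to 989 ± 23.4 in IR cells, against 1268 ± 34.6 in Ctr cells (SD, n = 3 each, log2 -0.36). Of 5 CDK inhibitors (median 0.07), Cdkn2c (-0.37) and Cdkn1b (-0.26) fell, and Cdkn2d (0.18, adjusted p = 0.0165 by limma) rose, a call lost without Ctr replicate 2, IR replicate 2 or IR replicate 3 (adjusted p of 0.0561, 0.073 and 0.0591 by limma).

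Genes of damage signalling and DNA repair fell more often than they rose. Of 25 genes of checkpoint signalling, 13 fell and 1 rose (all genes, 22.1% and 24.3%), and the median was -0.14. The number that fell was 8 with libraries scaled to equal totals and 5 with Ctr replicate 2 as the only control, where the median was -0.15. H2ax, the histone variant that is phosphorylated around breaks, had 783, 875 and 823 normalized counts in IR libraries and 1130, 1177 and 1160 in Ctr libraries (log2 -0.48), with all IR libraries lower. Rad1 (-0.45) and Hus1 (-0.40), which form the clamp that loads on damaged DNA, and Tipin (-0.37), which protects replication forks, also fell, and Mdc1, the mediator that binds phosphorylated H2AX, rose (2415 in IR cells and 2105 in Ctr cells, 0.20). Atm, the kinase that starts signalling at breaks, averaged 1084 and 1021 and overlapped between groups (0.08, adjusted p = 0.449 by limma).

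In base excision and single-strand break repair, 12 of 18 genes fell and 1 rose (median -0.23). Tdp1, which removes trapped topoisomerase from DNA ends, had 514, 525 and 519 normalized counts in IR libraries and 835, 893 and 886 in Ctr libraries (log2 -0.74 ± 0.06). Mutyh (-0.60) and Ung (-0.52), glycosylases that excise wrong bases, and Lig3 (-0.40), a DNA ligase, fell with it, while Polb, the repair polymerase, rose by 0.21. Of 33 genes of homologous recombination and the Fanconi pathway, 14 fell and 2 rose (median -0.11), with Rad51d (-0.47), Fanci (-0.44) and Fancb (-0.43) among the falls and Fancg (234 in IR cells and 156 in Ctr cells, 0.58) among the rises. Of 12 end joining genes 4 fell and 2 rose, close to the shares over all genes (22.1% and 24.3%), among them Xrcc6 and Xrcc5, which form the Ku dimer that caps broken ends (-0.31 and -0.27), and Polm (0.34), a gap-filling polymerase.

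Of 22 genes of G1/S control of the cell cycle, 13 fell and 5 rose (median -0.19). Ccnd1 (cyclin D1) had 21430, 21162 and 21700 normalized counts in IR libraries and 28257, 28851 and 28268 in Ctr libraries (log2 -0.41 ± 0.03), all IR libraries being lower. Besides Rbl1, the repressor E2f4 (-0.36) and Cdk4 (-0.34), the kinase partner of cyclin D1, fell, whereas Ccne1 (cyclin E1, 0.46), Ccnd3 (0.37) and the activator E2f1 (0.28) rose. Over all genes 22.1% fell and 24.3% rose, with falls in 24.2% at a mean of 100 to 1000 and 35.7% at 1000 to 10000. Of 44 DNA replication genes, 15 fell and 3 rose (median -0.08). The falls included Dna2, Orc3 of the origin recognition complex (-0.51), and the polymerase delta subunits Pold3 (-0.46) and Pold2 (-0.45). The 3 rises were small, and without IR replicate 3 none of them was called, without Ctr replicate 2 or 3 or IR replicate 2 only 1.

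Genes of G2 and mitosis changed little. Of 40 tested, 7 fell and 5 rose, both below the shares over all genes, and the median was -0.04. Mki67, the proliferation antigen, averaged 10548 in IR cells and 13073 in Ctr cells (log2 -0.31) and Top2a, the topoisomerase that untangles chromosomes, 19272 and 21989 (-0.19), while the mitotic kinesin Kif20a (0.29) and the kinase Aurka (0.26) rose. Cdk1 (-0.03) and Ccnb1 (0.07), the kinase and cyclin that drive entry into mitosis, were not called. The number that fell depended on single libraries, being 13 without -SG replicate 6 and 4 without Ctr replicate 2 or without IR replicate 3, and with libraries scaled to equal totals 4 fell and 8 rose. Of 6 histone genes with enough counts, 4 rose and 1 fell. The gene that fell was H1f0 (-0.34), which encodes a replacement linker histone not tied to replication, while H1f2, a linker histone, averaged 162 in IR cells and 75.0 in Ctr cells (1.10).

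**Figure D3:**
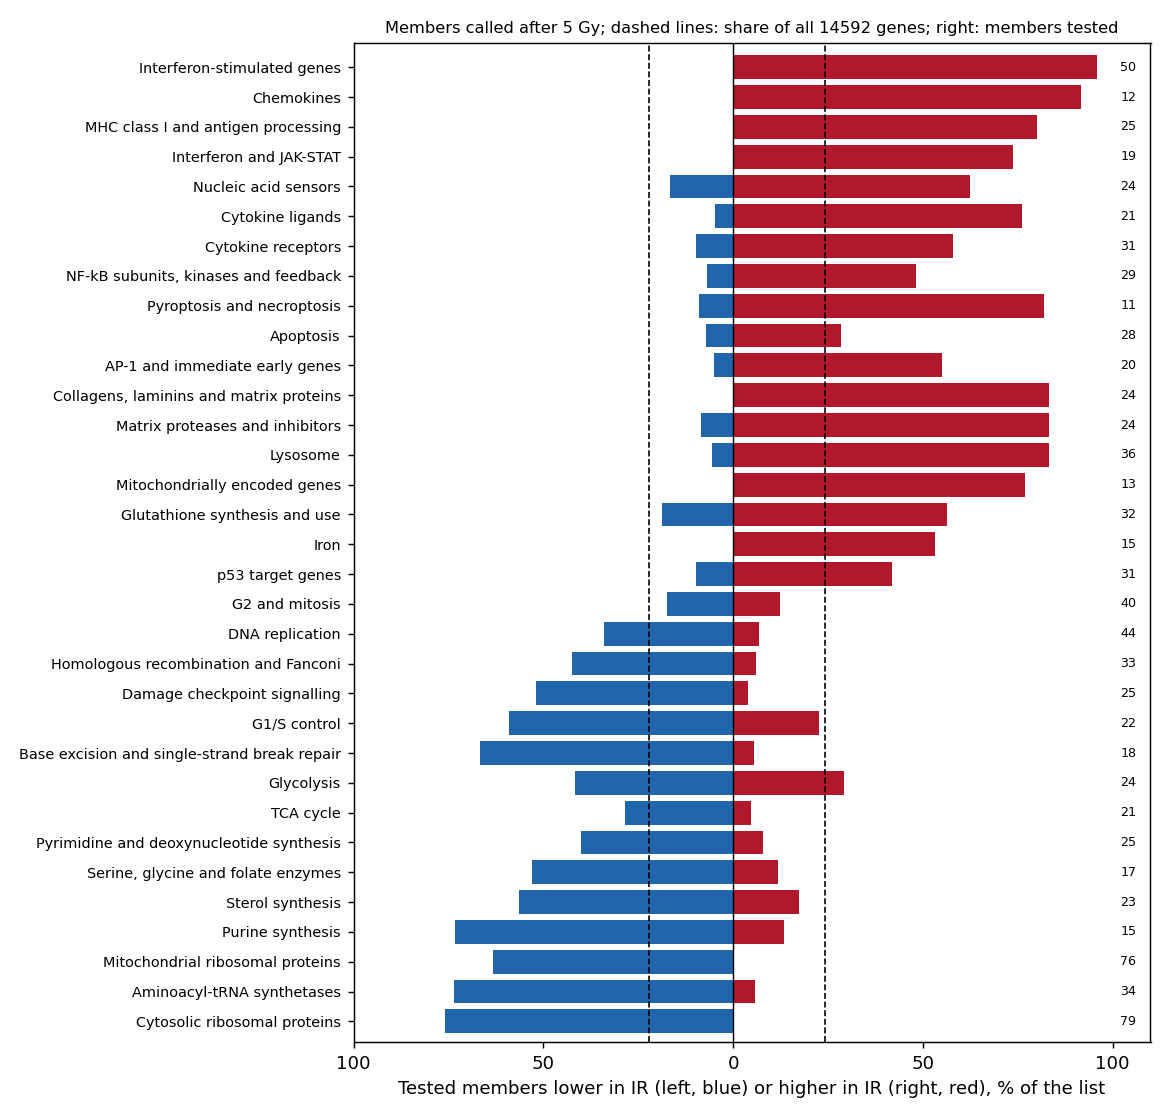
Share of the tested members of 33 gene groups that were higher (right, red) or lower (left, blue) in IR cells at an adjusted p under 0.05, with the number tested at the right edge and the shares over all 14592 genes (24.3% and 22.1%) as dashed lines. Interferon-stimulated genes (48 of 50 higher) lie near one end and cytosolic ribosomal proteins (60 of 79 lower) near the other.

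Genes that sense nucleic acid in the cytosol and endosome rose in most cases, while the DNA sensor Cgas fell. Of 24 tested, 15 rose and 4 fell (median log2 0.41). Zbp1 had 132, 105 and 126 normalized counts in IR libraries and 16, 15.9 and 27.3 in Ctr libraries (2.59 ± 0.19). The RNA sensors Ddx58 (RIG-I, 1478 in IR cells and 785 in Ctr cells, 0.91), Ifih1 (MDA5, 453 and 271, 0.74) and Tlr3 (901 and 497, 0.86) were all higher, as was Dhx58 (LGP2, 1.22), which regulates them. Cgas had 373, 383 and 357 in IR libraries and 484, 455 and 471 in Ctr libraries, all IR libraries being lower (-0.34, adjusted p = 0.00173 by limma). Sting1, the adaptor behind it, was higher in all IR libraries, at 696, 701 and 684 against 486, 451 and 453 (0.58).

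The transcription factors of the pathway also parted. Irf3, which acts at once after sensing, fell to 485 ± 11.4 in IR cells, against 631 ± 21.9 in Ctr cells (SD, n = 3 each, log2 -0.38), and Irf7, which is itself induced by interferon and amplifies the response, rose to 92.1 ± 13.7 in IR cells, against 22.8 ± 8.86 in Ctr cells (2.04). Of 19 genes of interferon signalling, 14 rose and none fell (median 0.37). Stat2 (553 and 378, 0.55) and Irf9 (225 and 145, 0.63), parts of the factor that interferon activates, rose, as did Jak2 (2257 and 1386, 0.70), a kinase of cytokine receptors, and Irf5 (214 and 107, 0.99). The receptor chain Ifnar1 averaged 984 and 997 and was not called, and Ifnar2 rose by 0.26. Ifnb1 was not analysed here.

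Interferon-stimulated genes, the antiviral effectors at the end of this pathway, were the group with the highest share of increases among those described. The table held 60, and the 50 that passed the minimum were tested. Among them 48 rose and none fell, 26 by at least 2-fold, and the median log2 fold change was 1.09. In all 48 every IR library lay above every Ctr library. Isg15, a ubiquitin-like modifier, had 457, 506 and 472 normalized counts in IR libraries and 195, 192 and 179 in Ctr libraries (1.33 ± 0.12). Ifit1, which binds foreign RNA caps, had 200, 170 and 178 against 59.6, 72.3 and 59.8 (1.5 ± 0.12), and Rsad2 (viperin) 72.5, 96.5 and 85.6 against 23.1, 22.3 and 12.3 (2.12 ± 0.21). The groups were far apart in each of the 3 genes. The members with the largest change were Slfn2 (88.5 in IR cells and 13.7 in Ctr cells, 2.68), Gbp4 (2.48), Gbp5 (2.22) and Ifi44 (2.18), and Usp18, a feedback inhibitor of the interferon receptor, rose too (33.1 and 6.66, 2.17). Ifitm2 (0.09) and Slfn9 (0.11) were not called. Limma called 0 members lower in this group and in interferon signalling, chemokines, MHC class I and mitochondrially encoded protein-coding genes, described above and below. In each of these groups, 0 were lower at an unadjusted p under 0.05 and 0 by edgeR or DESeq2.

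The promoters of 3 of these genes are shown because they hold the letters of the interferon response element, TTCNNTTTC, searched on both strands. RefSeq promoters (GRCm38.p6) were matched for 41 of the 50 genes, and 26 of their 49 promoters of 300 bases (53.1%) held this motif, against 8.56% of all 32851 promoters and 7.02% of the promoters of tested genes. The share was 12% among promoters of genes that rose by at least 2-fold, 19.1% at 4-fold or more and 5.11% among genes that fell by 0.5 or more on the log2 scale. In groups with more falls than rises, it was 18.6% for cytosolic ribosomal proteins and 4.65% for DNA replication. Below are the 250 bases before the start site of Isg15 (chr4:156200819-156201068, minus strand), Ifit1 (chr19:34640639-34640888, plus strand) and Rsad2 (chr12:26456453-26456702, minus strand), 5′ to 3′, with the matches in capitals. The 3 matches of Isg15 overlap one another and lie on the opposite strand, Ifit1 has 3, of which 2 overlap, and Rsad2 has 1.
Isg15: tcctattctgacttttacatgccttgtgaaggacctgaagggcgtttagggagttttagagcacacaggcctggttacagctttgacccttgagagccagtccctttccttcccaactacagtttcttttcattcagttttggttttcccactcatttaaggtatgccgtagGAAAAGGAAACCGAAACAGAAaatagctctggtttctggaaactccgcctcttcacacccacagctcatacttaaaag
Ifit1: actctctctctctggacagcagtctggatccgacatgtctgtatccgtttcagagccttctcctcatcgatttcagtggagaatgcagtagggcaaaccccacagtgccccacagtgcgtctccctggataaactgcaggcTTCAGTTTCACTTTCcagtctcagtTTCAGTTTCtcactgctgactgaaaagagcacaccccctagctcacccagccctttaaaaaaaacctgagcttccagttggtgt
Rsad2: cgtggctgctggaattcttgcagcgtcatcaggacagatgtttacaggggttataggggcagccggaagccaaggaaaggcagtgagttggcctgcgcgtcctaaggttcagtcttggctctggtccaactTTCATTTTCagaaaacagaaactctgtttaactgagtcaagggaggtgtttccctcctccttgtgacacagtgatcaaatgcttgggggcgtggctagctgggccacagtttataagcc

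The RNA of most genes that serve the presentation of peptides on MHC class I, which CD8 T cells read, rose. Of 25 genes 20 rose, 5 were not called and none fell, with a median log2 fold change of 0.57. The shared light chain B2m had 7998, 8117 and 7672 normalized counts in IR libraries and 5392, 5421 and 5182 in Ctr libraries (0.57 ± 0.03), and the groups did not overlap. The heavy chains H2-K1 (4450 in IR cells and 3052 in Ctr cells, 0.54) and H2-D1 (7146 and 5245, 0.45) rose similarly, though reads of these related genes may be shared. The immunoproteasome subunit Psmb9 rose by 1.23 and the peptide transporter Tap1 by 0.66. Tapbpl (1.06), an editor of bound peptides, the non-classical molecules Mr1 (1.30) and H2-T24 (1.27), and Nlrc5, the transactivator of the class I genes (491 and 328, 0.58), rose as well. Cd74, the invariant chain of class II, had 471, 500 and 467 in IR libraries and 133, 121 and 135 in Ctr libraries (1.88), again without overlap. Of 18 surface genes that T cells, NK cells or macrophages recognise, 11 rose and none fell, including Icam1 and Lgals9 (galectin-9, 805 and 227, 1.82).

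Most tested chemokines, the secreted attractants of leukocytes, rose. The table held 19, and the 12 that passed the minimum were tested. Among them 11 rose and none fell, 9 by at least 2-fold, with a median of 1.45. Members near 0 in Ctr cells, such as Ccl9, passed it only through other groups and could hardly be called lower. Cx3cl1 (fractalkine), the most abundant of those named, had 2251, 2283 and 2390 normalized counts in IR libraries and 817, 771 and 789 in Ctr libraries (1.54 ± 0.05). Ccl5, which draws T cells and NK cells, had 448, 454 and 427 against 94.3, 91.4 and 102 (2.20 ± 0.12). Ccl2, the attractant of monocytes, had 160, 182 and 194 against 50.7, 58.5 and 66.0 (1.60 ± 0.15). All IR libraries were above all Ctr libraries in the 3 genes. Cxcl10, an attractant of activated T cells, averaged 189 in IR cells and 88.6 in Ctr cells (1.08), and the neutrophil attractants Cxcl5 (411 and 159, 1.37) and Cxcl1 (407 and 223, 0.86) also rose. Ccl20 (42.1 and 5.42, 2.79) and Ccl9 (20.1 and 3.29, 2.69) had the largest fold changes, at low counts.

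The NF-kB site core GGNNTTNCC, searched on both strands, was held by 6 of the 9 promoters (66.7%) of the 8 chemokine genes with a RefSeq promoter, against 16% of all promoters. It was in 27.7% of promoters of genes that rose by at least 4-fold, 18.8% at 2-fold or more and 14.8% of those that fell by 0.5 or more. For cytosolic ribosomal proteins the share was 21.4%, and for DNA replication 18.6%. Both this core and that of the interferon response element were held by 1.33% of all promoters and by 20.4% of the promoters of the interferon-stimulated genes. The 250 bases before the start of Icam1 (chr9:21015690-21015939, plus strand) and Ccl20 (chr1:83116516-83116765, plus strand) are shown, since Icam1 was among the 15 largest increases and Ccl20 had the largest among chemokines. The 2 matches of each are in capitals, and they overlap in Ccl20.
Icam1: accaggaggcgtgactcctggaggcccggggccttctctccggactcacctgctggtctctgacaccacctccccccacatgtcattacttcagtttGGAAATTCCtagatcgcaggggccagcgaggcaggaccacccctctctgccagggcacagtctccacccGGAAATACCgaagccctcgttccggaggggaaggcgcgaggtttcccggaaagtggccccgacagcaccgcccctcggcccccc
Ccl20: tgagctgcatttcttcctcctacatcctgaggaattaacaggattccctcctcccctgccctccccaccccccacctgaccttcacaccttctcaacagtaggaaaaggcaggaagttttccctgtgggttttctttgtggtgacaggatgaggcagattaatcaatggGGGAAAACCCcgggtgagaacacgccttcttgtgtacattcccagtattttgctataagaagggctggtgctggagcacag

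Within the NF-kB pathway itself, 14 of 29 genes rose and 2 fell (all genes, 24.3% and 22.1%), and the median of 0.14 was small. The subunit Rela averaged 2883 in IR cells and 2479 in Ctr cells (log2 0.22), Nfkb1 averaged 3483 and 3553 and was not called (-0.03), and Nfkbia, the inhibitor that NF-kB induces, rose by 0.20. The receptor Cd40 (202 and 80.4, 1.31) and the kinase Irak2 (201 and 101, 0.99) rose most, and the adaptors Traf6 (-0.24) and Traf3 (-0.17) fell.

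Cytokine ligands and receptors rose in most cases. Of 21 ligands, 16 rose and 1 fell (median log2 0.86). Il1a, an interleukin that damaged cells release, had 355, 319 and 322 normalized counts in IR libraries and 103, 120 and 111 in Ctr libraries (1.57 ± 0.10). Csf2 (GM-CSF) had 22.1, 31.9 and 31.4 against 0.89, 4.25 and 2.64 (3.14 ± 0.50). All IR libraries were higher for both, but in Csf2 the counts of Ctr cells are close to 0. Tnfsf10 (TRAIL, a death ligand, 28.4 in IR cells and 4.25 in Ctr cells, 2.59) and Tnf (23.9 and 5.49, 1.99) were low too, Csf1, the growth factor of macrophages, was abundant and rose less (9933 and 7675, 0.37), and Lif fell (1580 and 1980, -0.32). Of 31 receptors 18 rose and 3 fell (median 0.56), led by Il1rl1 and Csf1r (32.1 and 4.71, 2.58). Csf1r, Cd14 (210 and 129, 0.70) and Cd68 (0.59) are also markers of macrophages, whose summed levels are given above. Their part in the immune results was not tested, and Ptprc was at or below 6.3 normalized counts in all 6 libraries. Of 9 complement genes 6 rose and none fell (median 1.16), although 1 was lower at an unadjusted p under 0.05. Those that rose include C3, Clu and Masp1 (514 and 178, 1.53), a protease of the lectin pathway.

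Most genes of lytic cell death rose. Of 11 genes of pyroptosis and necroptosis, 9 rose and 1 fell (median log2 0.73). Casp1, the inflammatory caspase, had 95.6, 118 and 123 normalized counts in IR libraries and 47.2, 46.8 and 34.3 in Ctr libraries (1.38 ± 0.14). Gsdmd, the pore that caspases open, had 380, 416 and 399 against 209, 223 and 188 (0.94 ± 0.07), and IR libraries were higher throughout in both genes. Casp4 (43.4 in IR cells and 13.3 in Ctr cells, 1.65) and Nlrp3, the sensor of an inflammasome (11.3 and 1.59, 2.27), rose from few counts, and Mlkl, which ruptures the membrane in necroptosis, fell (1271 and 1412, -0.15). Of 28 genes of apoptosis 8 rose, near the 24.3% over all genes, and 2 fell (median 0.12), with Bmf (86.9 and 35.1, 1.28), a BH3-only protein, ahead. The number of apoptosis genes that fell was 5 without -SG replicate 6.

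Of 20 immediate early genes, 11 rose and 1 fell (median log2 0.21). Fos had 57.8, 42.2 and 58.5 normalized counts in IR libraries and 19.6, 15.9 and 14.1 in Ctr libraries (1.61), with no overlap. Egr2 (18.9 in IR cells and 7.14 in Ctr cells, 1.29) and the phosphatase Dusp1 (266 and 140, 0.94) rose, whereas Fosl1, the late member of the Fos family, fell (632 and 891, -0.50).

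Genes that build and cut the extracellular matrix rose widely. Of 24 collagens, laminins and other matrix proteins tested, 20 rose and none fell (median log2 0.61), though edgeR and DESeq2 each called 1 lower. The collagens Col3a1 and Col5a2, of the 18 genes described above, did not pass the minimum. Col3a1 had 1.05, 2.81 and 0 normalized counts in IR libraries and 90.8, 5.31 and 125 in Ctr libraries. Col5a2 had 3.15, 1.87 and 3.25 against 19.6, 1.06 and 18.5. Col6a1, a chain of collagen VI, had 848, 891 and 781 normalized counts in IR libraries and 312, 308 and 297 in Ctr libraries (1.45 ± 0.06), and Ccn2 (CTGF), a matricellular protein, averaged 8722 in IR cells and 4567 in Ctr cells (0.93). Of 24 proteases and inhibitors, 20 rose and 2 fell (median 0.49). Mmp9, a gelatinase, had 6924, 7204 and 7184 in IR libraries and 2362, 2270 and 2241 in Ctr libraries (1.63 ± 0.04). Groups did not overlap in either gene. The collagenase Mmp13 (187 and 42.2, 2.12) and the stromelysin Mmp10 (343 and 135, 1.33) rose, and Adam17, a sheddase, fell by 0.21. Col1a2, a collagen chain of fibroblasts, had 18.9, 14.1 and 17.3 normalized counts in IR libraries and 63.2, 7.44 and 49.3 in Ctr libraries, again high in Ctr replicates 1 and 3, and was not called (-0.77), while Pdgfra, a marker of fibroblasts, was higher in IR cells (444 and 187, 1.24). The part of the fibroblast markers in these results was not tested.

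Epithelial genes moved both ways, with 7 of 16 higher and 3 lower (median log2 0.12), against 24.3% and 22.1% of all genes. Cdh1 (E-cadherin) had 13342, 12979 and 13022 normalized counts in IR libraries and 10295, 10171 and 10257 in Ctr libraries (0.36), Cldn4, a claudin of tight junctions, averaged 4598 and 2645 in IR and Ctr cells (0.80), and the basal keratin Krt14 5021 and 3286 (0.61). Grhl2, a transcription factor of epithelial cells, fell (-0.45). Of 5 mesenchymal transition factors tested, 2 rose and 3 were not called (median 0.06). The 2 were Zeb1, a repressor of E-cadherin, which averaged 48.5 and 11.9 (1.97), and Snai1, another, 522 and 349 (0.57). Cdh1 and these 2 repressors were thus higher in the same cultures.

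Lysosomal genes rose by small and even amounts. Of 36 tested, 30 rose and 2 fell, none by 2-fold, and the median log2 fold change was 0.34. Grn (progranulin) had 4426, 4532 and 4515 normalized counts in IR libraries and 2669, 2717 and 2604 in Ctr libraries (0.75 ± 0.04). Hexa, a hexosaminidase (175 in IR cells and 102 in Ctr cells, 0.77), the cathepsins Ctsd (3295 and 2475, 0.41) and Ctsb (6108 and 4962, 0.30), and Tfeb, a transcription factor that controls such genes (145 and 86.5, 0.74), rose with it. Scarb2, a membrane protein of the lysosome, fell by 0.22. Genes of iron handling rose in 8 of 15 cases, and none fell (median 0.12), except that 3 fell without -SG replicate 6. Cp (ceruloplasmin), which oxidises iron on its way out of cells, had 1082, 920 and 992 in IR libraries and 299, 277 and 266 in Ctr libraries (1.82 ± 0.08), Slc40a1 (ferroportin), the exporter, averaged 111 and 45.3 (1.25), and Ftl1, the light chain of ferritin, 11593 and 9028 (0.36).

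The enzymes of the TCA cycle changed by small amounts. Of 21 tested, 6 fell and 1 rose (median log2 -0.05), against 22.1% and 24.3% of all genes. Among all tested genes with a mean of 1000 to 10000 normalized counts, 35.7% fell. Fh1 (fumarase) had 2335, 2536 and 2524 normalized counts in IR libraries and 3049, 2989 and 3040 in Ctr libraries, all IR libraries being lower (-0.30 ± 0.05, adjusted p = 0.000185 by limma). Idh3g (-0.16), Idh1 (-0.13), Sucla2 (-0.13), Idh2 (-0.10) and Dlst (-0.09), enzymes from isocitrate to succinate, were also lower, and Mdh1, the cytosolic malate dehydrogenase, rose (3892 in IR cells and 3313 in Ctr cells, 0.23). The other 14 were not called. Of these, Suclg2, Sdha, Sdhb, Sdhc, Sdhd, Idh3a, Idh3b, Dld, Ogdh, Aco1, Cs, Mdh2 and Suclg1 had log2 values of -0.13 for Suclg2 to 0.08 for Suclg1. The number that fell was 10 without -SG replicate 6 and 3 without Ctr replicate 2 or 3, and under other scalings 3 to 4 fell and 1 to 4 rose.

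**Figure D4:**
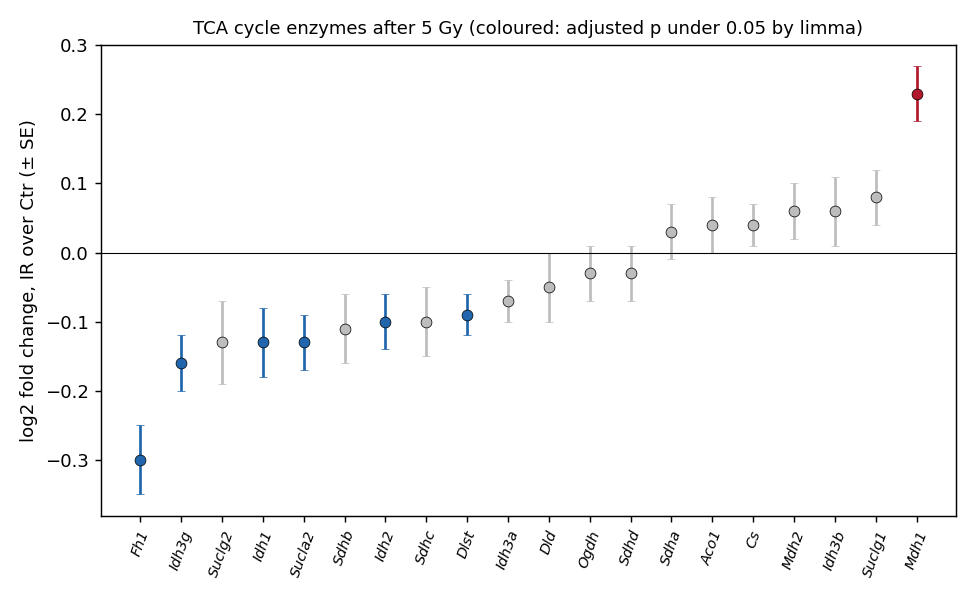
log2 fold change (± SE) of 20 TCA cycle enzymes, IR over Ctr, in order of size, with those past an adjusted p of 0.05 in blue (lower) or red (higher). All lie between -0.30 (Fh1) and 0.23 (Mdh1), and 13 of those shown were not called.

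Glycolysis was split, with 10 of 24 genes lower and 7 higher (median log2 -0.10), against 22.1% and 24.3% of all genes. Among all tested genes with a mean of 1000 to 10000 normalized counts, 35.7% fell. Pfkl, a phosphofructokinase, had 5853, 5736 and 5655 normalized counts in IR libraries and 8353, 8107 and 8052 in Ctr libraries (-0.51 ± 0.04), and every IR library was lower. The glucose transporter Slc2a1 (-0.40), the lactate dehydrogenase chain Ldha (23196 in IR cells and 29660 in Ctr cells, -0.35) and enolase Eno1 (-0.33) fell too. Reads of abundant glycolytic genes may be shared with pseudogenes. Txnip, which restrains glucose uptake, rose (340 and 121, 1.49), and so did the other lactate dehydrogenase chain, Ldhb (197 and 105, 0.90), and Pdk2, a kinase that slows pyruvate dehydrogenase (48.0 and 17.1, 1.44). Pdk1, a more abundant kinase of the same role, was lower (456 and 536, -0.23, adjusted p = 0.022 by limma), a call lost without Ctr replicate 1, IR replicate 2 or IR replicate 3 (adjusted p of 0.147, 0.104 and 0.0686 by limma). Of 21 genes of pyruvate entry and anaplerosis, which include both kinases, 5 rose and 6 fell (3 rose without IR replicate 3). These counts are close to the shares over all genes (24.3% and 22.1%).

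Serine and folate enzymes mostly fell, where 22.1% of all genes fell and 24.3% rose. Of 17 genes 9 fell and 2 rose (median log2 -0.33), and the 2 rises were not called without Ctr replicate 3 or IR replicate 3. Shmt2, the mitochondrial enzyme that splits serine into glycine and a one-carbon unit, had 5853, 6149 and 6143 normalized counts in IR libraries and 8369, 8569 and 8605 in Ctr libraries (-0.49 ± 0.04). Mthfd1l (2043 in IR cells and 3157 in Ctr cells, -0.63), which releases formate from mitochondria, Mthfd2 (-0.42) and Shmt1 (-0.43) fell as well. In the synthesis of serine, Psat1 (10599 and 13996, -0.40) and Psph (-0.35) fell, and Phgdh, the first enzyme, averaged 5264 and 5174 and overlapped between groups (0.03, adjusted p = 0.665 by limma). Atf4, the transcription factor that many of these genes respond to, had 4380, 4533 and 4503 in IR libraries and 5946, 6259 and 6145 in Ctr libraries (-0.45), all IR libraries being lower. Its targets Asns (asparagine synthetase, 3022 and 4883, -0.69) and Chac1 (-0.40) fell, while Ddit3 (CHOP) rose (186 and 145, 0.36).

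Nucleotide synthesis followed the same direction. Of 15 purine synthesis genes 11 fell and 2 rose (median log2 -0.17), of which Pfas, an amidotransferase of the pathway, fell most (2542 in IR cells and 3281 in Ctr cells, -0.37). Of 25 genes of pyrimidine and deoxynucleotide synthesis 10 fell and 2 rose (median -0.13). Over all genes 22.1% fell and 24.3% rose. Falls made up 24.2% at a mean of 100 to 1000 and 35.7% at 1000 to 10000. Tk1, the thymidine kinase of dividing cells, had 2521, 2549 and 2694 normalized counts in IR libraries and 4001, 3848 and 4044 in Ctr libraries (-0.62 ± 0.05), without overlap. The members that rose, Cmpk2 (106 and 37.5, 1.47) and Samhd1 (2875 and 2303, 0.32), are also induced by interferon. Sterol synthesis fell in 13 of 23 genes and rose in 4 (median -0.26), with Lss (-0.54), Hmgcs1 (-0.45) and the regulator Srebf2 (4517 and 6178, -0.45) lower.

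Redox genes changed in both directions. Of 32 genes of glutathione synthesis and use, 18 rose and 6 fell (median log2 0.20). The rises were mostly of transferases, such as Mgst2 (36 in IR cells and 8.08 in Ctr cells, 2.02), whereas Gclm, the regulatory chain of the enzyme that starts glutathione synthesis, had 1287, 1397 and 1415 normalized counts in IR libraries and 1895, 1985 and 1887 in Ctr libraries (-0.49), all lower in IR cells. Slc7a11, the importer of cystine, fell by 0.40. Of 23 enzymes that make or remove reactive oxygen species 10 rose and 6 fell (median 0.07). Over all genes 24.3% rose and 22.1% fell, and the falls among these enzymes were near that share. Nos2, the inducible nitric oxide synthase, rose (61.9 and 8.90, 2.72), as did Xdh (xanthine oxidase, 358 and 89.2, 2.00), and the mitochondrial peroxiredoxin Prdx3 fell (2100 and 2913, -0.47). Nfe2l2 (NRF2), the regulator of many antioxidant genes, was not called (1399 and 1333, 0.07), and genes known as its targets went both ways, with Nqo1 (360 and 252, 0.52) and Hmox1 (982 and 701, 0.48) higher and Gclm, Slc7a11 and Srxn1, a sulfiredoxin (647 and 861, -0.41), lower.

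Many genes of the translation machinery fell, where 22.1% of all genes fell and 24.3% rose. Of 79 genes of the cytosolic ribosome 60 fell and none rose (median log2 -0.23), and of 76 of the mitochondrial ribosome 48 fell and none rose (median -0.20), 1 being higher at an unadjusted p under 0.05. With Ctr replicate 2 as the only control 32 and 24 of these fell, with medians of -0.22 and -0.23. Of 34 aminoacyl-tRNA synthetases 25 fell and 2 rose (median -0.23). Rpl13, of the large subunit, had 2256, 2616 and 2252 normalized counts in IR libraries and 3214, 3002 and 3449 in Ctr libraries (-0.44 ± 0.07). Mrps18b, of the small mitochondrial subunit, had 438, 446 and 447 against 636, 642 and 693 (-0.57 ± 0.08), and neither gene overlapped between groups. Farsb, which charges phenylalanine tRNA, fell by 0.38, and the exceptions among the synthetases were Mars2 (0.31) and Qars (0.22). Ribosomal protein genes have many pseudogenes that may share their reads, and the 307 pseudogenes that fell include copies of such genes.

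Protein-coding genes of the mitochondrial genome went the other way. Of 13 tested, 10 rose and none fell (median log2 0.49). Besides these, 1 of 2 mitochondrial ribosomal RNA genes tested fell, and 2 mitochondrial transfer RNA genes were not called. mt-Nd4, of complex I, had 5892, 5338 and 5842 normalized counts in IR libraries and 3648, 3428 and 3803 in Ctr libraries (0.65 ± 0.08), with no overlap. The number that rose was 6 without Ctr replicate 1, without Ctr replicate 3 or without IR replicate 1. Nuclear genes of the respiratory chain stayed near their level (median -0.03). Of 79, 12 were lower and 4 higher, both below the 22.1% and 24.3% over all genes. These counts were 27 and 8 without -SG replicate 6, and 6 fell without Ctr replicate 2 and 7 without IR replicate 3.

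Among genes that code for no protein, have no overlap between groups and average at least 100 normalized counts in the higher one, the largest increase was that of H19, an imprinted RNA of growth control, with 117, 111 and 88.9 normalized counts in IR libraries and 32.9, 14.9 and 32.5 in Ctr libraries (log2 2.01 ± 0.25). AW112010, an RNA of immune cells that interferon induces, averaged 101 in IR cells and 31.9 in Ctr cells (1.64), followed by Gm19589 (1.24), 2610203C22Rik (1.08) and Gm20544 (0.95). Neat1, the RNA on which paraspeckles are built, had 2407, 2242 and 2409 in IR libraries and 4535, 4221 and 4460 in Ctr libraries (-0.90 ± 0.05). Mir17hg, the host of the miR-17 cluster, averaged 69.7 and 123 (-0.82), and Gm17300 (-0.72), Gm6091 (-0.67) and Gm46432 (-0.64) fell as well. That the groups did not overlap in these genes follows from their selection.

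The same dose was also given in medium without serine and glycine, and IR -SG against -SG shares no library with IR against Ctr. There 2847 genes (19.5%) were higher and 2503 (17.2%) lower by limma. Of the 3543 genes higher in IR cells, 2152 (60.7%) were also higher in IR -SG cells and 40 were lower. Of the 3218 lower genes, 1782 (55.4%) were also lower and 31 higher. The median log2 fold change of the 831 genes that rose by at least 2-fold was 1.42 in IR against Ctr, the comparison that selected them, and 0.75 in IR -SG against -SG. Across all 14592 genes, which are not independent replicates, the log2 fold changes of the 2 comparisons correlated with r = 0.69 (Spearman's rho 0.659).

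The difference between the 2 responses was tested as an interaction, the log2 fold change without the amino acids less that with them. It was negative in 827 genes (5.67%) and positive in 453 (3.1%). Of the 831 genes above 294 had a negative interaction, a share that their selection on the IR and Ctr libraries, which also enter the interaction, raises. Interferon-stimulated genes had a median log2 of 1.09 with and 0.55 without the amino acids. Of the 50, 42 rose without them and 17 had a negative interaction. Of 12 chemokines 11 rose with the amino acids and 6 without, and 7 had a negative interaction. Il1a, which rose by 1.57 with the amino acids, had a log2 fold change of -0.21 without them (interaction -1.78, adjusted p = 2.6e-07 by limma). Txnip likewise had 1.49 and -0.21 (interaction -1.70).

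Genes of G2 and mitosis differed in the opposite sense. Of 40, 5 rose and 7 fell with serine and glycine, against 28 and none without them, and 25 had a positive interaction. All 6 histone genes had a negative interaction, with a median log2 fold change of 0.92 with the amino acids and -0.98 without them. For Cdk1 the log2 fold change was -0.03 with and 0.31 without the amino acids (interaction 0.34, adjusted p = 0.000309 by limma). Immediate early genes, of which 11 rose with the amino acids, had 9 falls and no rise without them, and 12 had a negative interaction. Sterol synthesis fell in 13 genes with and 7 without them, and 11 genes had a positive interaction. Its median log2 fold change was -0.26 with and -0.02 without them. Mitochondrially encoded protein-coding genes had medians of 0.49 and 0.12, but no member passed the interaction test. The medians of the ribosomal proteins, -0.23 with and -0.18 without the amino acids, and of the TCA cycle enzymes, -0.05 and -0.06, were close, and none of their members passed it. A member that misses the threshold is not thereby shown to respond alike.

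**Figure D5:**
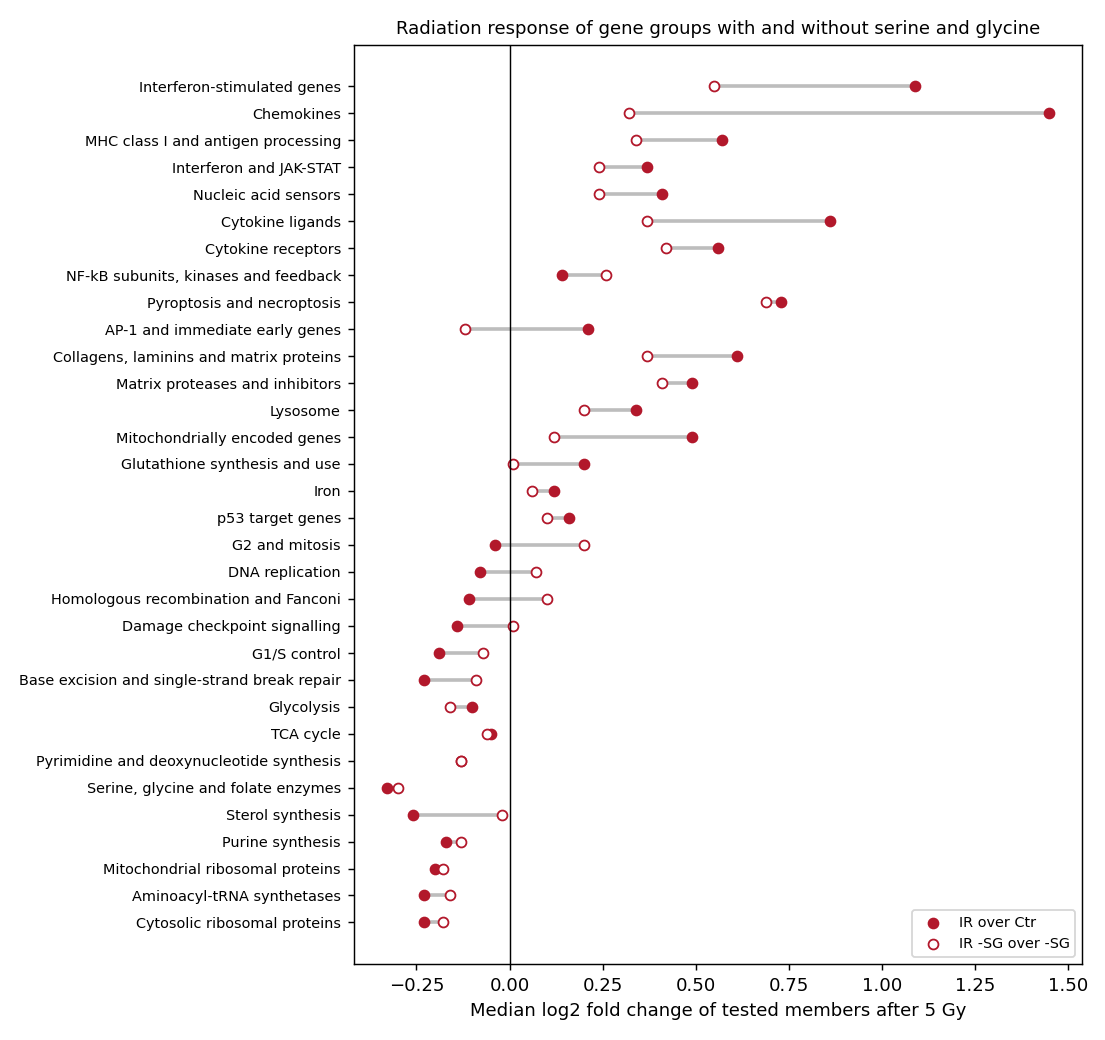
Median log2 fold change after 5 Gy of the tested members of 32 gene groups, with serine and glycine (IR over Ctr, filled circles) and without them (IR -SG over -SG, open circles), joined by a grey line. Chemokines have medians of 1.45 and 0.32 and interferon-stimulated genes of 1.09 and 0.55, while G2 and mitosis genes have -0.04 and 0.20.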

How the data were processed

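Total RNA of 4T1 cultures was freed of ribosomal RNA, made into stranded libraries and sequenced from 2 ends over 36 cycles. The signal values are normalized counts as the authors deposited them, that is, reads per gene divided by 1 DESeq2 size factor per library. Per the labels, the submitters' processing notes name FastQC, HISAT2, TopHat, featureCounts, DESeq2, R 3.3.1 and GRCm38, with other versions not given in the sources used here, and likewise whether strand was used in counting. Counts of overlapping, antisense or near-identical genes may be shared and are uncertain. Whole reads could be recovered from 100% of the values at a tolerance of 0.001, and they were used only in the count tests named as alternatives.

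Groups came from the library labels. Genes with at least 10 normalized counts in 3 or more libraries (14592) were tested with limma 3.58.1 in R 4.3.3, on log2(normalized count + 1), with an intensity trend, all 12 libraries and 4 groups in 1 fit, and Benjamini-Hochberg adjustment over all genes at a threshold of 0.05. The 3 libraries of a group came from 1 experiment in which the study speaks of biological triplicates, and p-values measure the spread between these libraries, which could be partly technical. At 15553887 to 19507587 reads per library, genes of few reads are measured with less precision than abundant ones. On simulated data, whose spread followed the common trend only, with 200 changed genes among 14592 for IR against Ctr, 66% of changes of 0.25 on the log2 scale, 96% of 0.5 and 100% of 1 and of 2 were recovered, with 10 false calls.

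Named genes were the 15 largest rises and 15 largest falls (groups without overlap, at least 100 normalized counts on average in the higher group, predicted genes left out), the 5 largest in each direction in counts and among non-coding genes, up to 4 members of each gene group with the largest change, up to 2 against its direction and those whose role defines it, the TCA cycle enzymes, the genes that the study's text names, and the 10 largest interactions. Other members were given where their role helps to describe a group, and they were chosen after their values were seen. A few genes that the rule names are not reported here. The gene groups and named genes were chosen with earlier results of these data known, so groups are described by counts and medians, with no test of a group. Promoters came from RefSeq (GRCm38.p6), 250 bases before to 50 after each start, matched by symbol. Alternatives were edgeR 4.0.16 and DESeq2 1.42.0 on recovered reads, other scalings, pseudocounts and filters, a replicate block, fits without each library and, added after the data were seen, Ctr replicate 2 as the only control.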

Additional observations from a re-analysis of the deposited data

Results flagged for a closer look

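The response to 5 Gy differed between the 2 media by a test of the difference itself, the limma interaction of radiation and medium with Benjamini-Hochberg adjustment. The log2 fold change was lower without serine and glycine in 827 genes and higher in 453. The interaction has a sign, so a smaller fall counts as higher. Among the 827, 749 were genes higher in IR cells, and among the 453, 293 were genes lower in IR cells. The IR and Ctr libraries enter both tests. The 10 genes with the largest interaction all had a lower log2 fold change without the amino acids. In normalized counts the rise was not smaller in all of them. Scara5 went from a mean of 18.2 in Ctr to 117 in IR cells, and from 408 in -SG to 668 in IR -SG cells. Dsg3 went from 2.78 to 12.8 with the amino acids and from 153 to 176 without them. H1f2, a linker histone, had an interaction of -2.50, with log2 fold changes of 1.10 in IR against Ctr and -1.40 in IR -SG against -SG, and was the only one of the 10, beside Il1a, whose change had the opposite sign in the 2 media. It had 164, 163 and 158 normalized counts in IR libraries and 77.4, 65.9 and 81.8 in Ctr libraries, against 38.6, 30.7 and 33.4 in IR -SG libraries and 79.9, 98.3 and 98.3 in -SG libraries. Serpinb9b, a serine protease inhibitor, had -2.28 (2.71 with and 0.44 without the amino acids), Il1rl1 -2.05 (3.0 and 0.95) and Mab21l4 -1.96 (2.28 and 0.31). Scara5 had -1.89 and differed in level too, with 145, 125 and 82.4 normalized counts in IR libraries and 16.9, 14.9 and 22.9 in Ctr libraries, against 631, 711 and 664 in IR -SG libraries and 394, 454 and 376 in -SG libraries. Plekhs1 had -1.80, Dsg3, a desmosomal cadherin, -1.78 (1.98 and 0.20), Il1a -1.78, Siglecg -1.77 and Slc24a3, an ion exchanger, -1.70 (1.82 and 0.12). The cause of these differences was not tested.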

How the results depend on the processing

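The counts in IR against Ctr held within 1.5 times of 3543 higher and 3218 lower genes under most settings, with 3673 and 3101 by edgeR and 3236 and 2741 by DESeq2. With each library left out in turn they were 3172 to 3915 and 2665 to 3811. With Ctr replicate 2 as the only control 1725 were lower, and a 2-fold minimum left 831 and 19, and 266 higher and 38 lower in IR -SG against -SG. The 831 became 203 with a mean of 100 or more, 1254 without a filter and 523 with a pseudocount of 8. The 19 became 31 by edgeR, 0 with a mean of 100 or more, 108 without a filter, 6 among protein-coding genes, 2 with a pseudocount of 8 and 126 after quantile normalization, and 17 to 36 with a library left out (36 without IR replicate 2). Of the interactions, 453 positive and 827 negative, 87 and 413 were left with Ctr replicate 2 as the only control and 6 and 172 at 2-fold. The positive ones were 265 without an intensity trend and 266 to 822 with a library left out (822 without -SG replicate 6, 266 without Ctr replicate 1). Replicate numbers did not pair the libraries (r of -0.042 to 0.051 between deviations of same-numbered libraries), and with a replicate block 3432 genes were higher and 3037 lower in IR cells and 288 interactions were positive. Among the named genes only Hsp90ab1 reversed, at 0.08 after quantile normalization. With Ctr replicate 2 as the only control, falls became fewer in several gene groups, for example 6 of homologous recombination and Fanconi, 9 of DNA replication, 6 of purine synthesis, 2 of the respiratory chain and 1 of the TCA cycle, while the medians of these groups moved by 0.02 or less on the log2 scale. With 1 control library fewer calls are made in general. The causes were not tested. Detection by read level was not tested.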

Other observations

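Some gene groups not described above are given here, and over all genes 24.3% rose and 22.1% fell. Of 8 genes of prostaglandin and lipid mediator synthesis 3 rose and 2 fell, and Ptgs1 (cyclooxygenase-1) had 425, 474 and 427 normalized counts in IR libraries and 120, 105 and 113 in Ctr libraries (log2 1.96), without overlap. Of 16 fatty acid synthesis genes 7 fell and 1 rose (median -0.09), the rise being that of Acacb (0.95), an acetyl-CoA carboxylase, and of 17 genes of the pentose phosphate pathway and NADPH 8 fell and 1 rose (median -0.10), with 5 falls when any 1 IR library, Ctr replicate 1 or Ctr replicate 2 was left out. Of 16 circadian clock genes 6 rose and 3 fell, though 1 or 0 fell when an IR library was left out and 1 without Ctr replicate 1. Of 9 genes of the EGF family 3 rose and 2 fell. Egfr, the receptor, rose by 0.96, and 1 of the family rose without IR replicate 3.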
